A study of Mus musculus with 8 samples.

Results

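Complex I (NADH:ubiquinone oxidoreductase) was examined through the 46 protein-coding genes whose names start with Nduf, out of 27110 genes listed for these mouse livers, 16730 of them protein coding. By name 38 are subunits and 8 are assembly factors, whose names start with Ndufaf. All 46 had enough reads to be tested. Total RNA of 8 bulk liver samples was sequenced. Of these, 4 samples were labelled LKO, a liver-restricted deletion of Pkd1l1, which encodes a polycystin-family membrane protein, and 4 were Fl/Fl controls. All carry the labels NT for treatment and week 7 for time. LKO replicates 3, 4, 12 and 13 and Fl/Fl replicates 5, 7 and 9 were female, and Fl/Fl replicate 10 was male. The sources used here do not give the driver of the deletion, the meaning of NT or whether week 7 is an age.

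Complex I is the entry point of the mitochondrial respiratory chain: it takes electrons from NADH, passes them to ubiquinone and pumps protons across the inner membrane. Its core subunits carry the flavin, the iron-sulfur clusters and the ubiquinone site, and some of them are encoded in the mitochondrial genome. Around the core sit accessory subunits, which are needed for assembly and stability, and assembly factors help to build the complex but are not part of it. The parts are commonly grouped into the N module, which oxidises NADH, the Q module, which reduces ubiquinone, and a proximal and a distal part of the membrane arm. Hepatocytes are rich in mitochondria. Among the 38 subunit names, 36 belong to complex I (7 core and 29 accessory). Ndufa4 is now counted as a subunit of complex IV, and Ndufa4l2 is its paralogue.

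The libraries held 71491723 to 76622375 counted reads each. Levels are given as CPM, the reads of a gene scaled to a common library size, with library sizes scaled by the trimmed mean of M values, on which 3 reads come to between 0.0385 and 0.0428 CPM. Because a sex term takes up the male library, the genotype effect is that of the 4 LKO and 3 female Fl/Fl livers. Each fold change is printed as the log2 ratio, LKO over female Fl/Fl, ± its standard error. The adjusted p beside it comes from the quasi-likelihood F test of edgeR, adjusted by Benjamini-Hochberg across 16420 genes. Pkd1l1 had 2 reads over the LKO and 2 over the Fl/Fl libraries, so it could not check the genotype labels. The labels name hepatocytes and cholangiocytes. Summed hepatocyte markers were at 129700 to 144700 CPM in LKO and 133900 to 146700 CPM in female Fl/Fl libraries, most of it albumin. Of the 10 hepatocyte markers, 0 passed in edgeR or limma voom. Before adjustment 3 were higher and 1 lower (p under 0.05), beside 9.22% and 6.86% of all tested genes. DESeq2 called 2 higher, beside 3.47% of genes. These were Hnf4a (log2 0.47 in edgeR, adjusted p = 0.0646) and Tat (0.59, adjusted p = 0.0920). Summed cholangiocyte markers were at 55.6 to 66.7 CPM in LKO and 66.7 to 80.1 CPM in female Fl/Fl libraries, with Krt7 at no more than 0.988 CPM. In bulk tissue, fewer cells of a type and less RNA per cell cannot be told apart.

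All Nduf genes that differed between the genotypes past the threshold were accessory subunits of complex I, and all were higher in LKO. Of the 38 subunit genes, 8 were higher in LKO past the threshold (Ndufs6, Ndufb3, Ndufa2, Ndufb6, Ndufa13, Ndufv3, Ndufb8 and Ndufb11), 0 were lower and 30 did not pass. Of all tested genes, 1.02% were higher and 0.396% lower. The 8 rises ranged from 1.38-fold for Ndufb11 to 1.87-fold for Ndufs6. The median log2 fold change over the 38 was 0.28, beside -0.003 over all tested genes, and 30 of the 38 were positive (29 with DESeq2 size factors or upper quartile scaling, which turn Ndufc1 negative), beside 49.5% of all tested genes. For the count of 0 lower subunits, no subunit was lower without adjustment (p under 0.05, beside 6.86% of all tested genes), and DESeq2 (1.92% of genes lower) and limma voom (0.359%) also called 0 lower.

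Every LKO library lay above every female Fl/Fl library in 19 of the 38 subunits, beside 8.85% of all tested genes. All 8 assembly factors stayed short of the threshold. Without adjustment, 20 of the 38 subunits were higher, beside 9.22% of all tested genes.

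The 8 calls rest on the sex term and on the Fl/Fl libraries. With genotype alone over all 8 libraries 0 subunits were called, with 4 higher and 0 lower before adjustment and 0.00609% of all genes called higher, and the smallest adjusted p of any Nduf gene was 0.544. Without Fl/Fl 5 the count was 0 (17 higher and 0 lower before adjustment, 0.0119% of all genes called higher), without Fl/Fl 7 it was 2, Ndufs6 and Ndufb3 (0.149%), and without both it was 0 (21 higher and 0 lower before adjustment, 0.0464%). Leaving out an LKO library gave 4 without LKO 3 (0.786%), 3 without LKO 4 (0.214%), 4 without LKO 12 (0.662%) and 4 without LKO 13 (0.262%). In all 20 fits, the main one included, each of the 8 kept a positive fold change (160 of 160 values). The fit to the 7 female libraries alone is the same as that without Fl/Fl 10, and both are counted among the 20. The 8 were called on these same libraries, with every LKO library above every female Fl/Fl library. Positive values thus largely follow from that choice. DESeq2 called 14 subunits, where it called 3.47% of all genes higher, and limma voom called 7 (0.944%). Other scalings and filters called 6 to 9: 6 with upper quartile scaling (0.834%), 7 with DESeq2 size factors (0.907%) and without Fl/Fl 10 (0.86%), 8 with at least 10 reads in 4 libraries (1.01%) and 9 with no filter (1.18%) and without Fl/Fl 9 (2.84%). Thresholds of 0.01 and 0.1 in place of 0.05 gave 0 (0.0853%) and 10 (2.17%). In the authors' deposited table, which has no sex term, 0 of the 46 genes had an adjusted p under 0.05 (0.409% of all listed genes did), the smallest being 0.366 for Ndufb8, and 4 had an unadjusted p under 0.05.

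**Figure D1:**
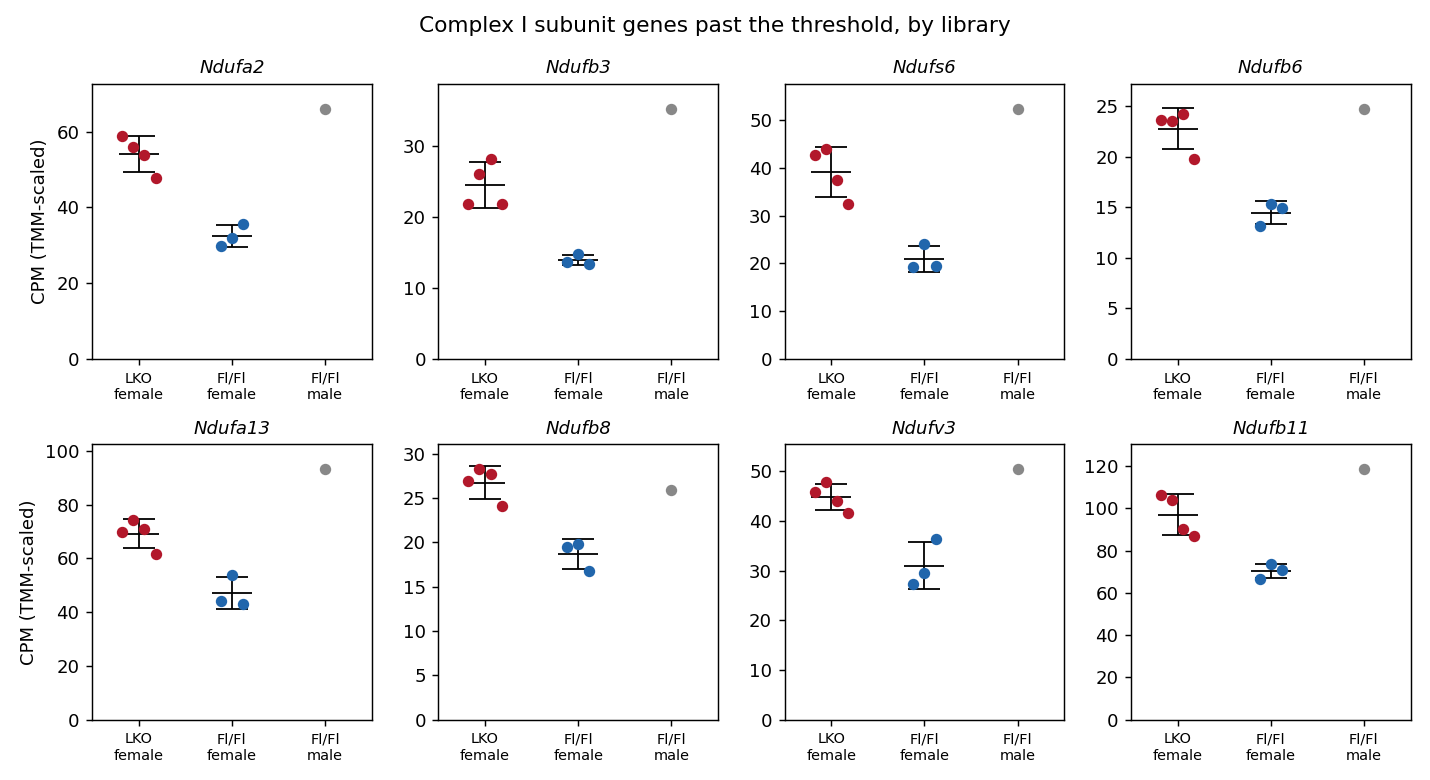
CPM (y axes, starting at 0) of the 8 Nduf genes past the threshold in each library, with LKO females, Fl/Fl females and the Fl/Fl male on the x axes. Points are libraries and bars are the mean ± SD of the 4 LKO and 3 female Fl/Fl libraries. The LKO points lie above the female Fl/Fl points in all 8 panels, and the male Fl/Fl point lies above every LKO point in 7 of them.

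In the N module, the peripheral tip that oxidises NADH, 3 of 10 subunits rose and all 3 were accessory. Ndufs6, a zinc-binding accessory subunit (chromosome 13, 73319838 to 73328542, minus strand, mm10), had 42.6, 43.8, 37.4 and 32.4 CPM in LKO 3, 4, 12 and 13, against 19.3, 24.1 and 19.4 CPM in female Fl/Fl 5, 7 and 9 and 52.4 CPM in the male Fl/Fl library. The LKO and female Fl/Fl values did not overlap, and the male Fl/Fl library was above all of them. Its log2 fold change of 0.90 ± 0.13 was the largest among the 46 genes (adjusted p = 0.0134). The gene shares 30 bases with Mrpl36 on the opposite strand, and the sources used here do not say whether counting used strand.

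Ndufa2, an accessory subunit with a thioredoxin-like fold (chromosome 18, 36742332 to 36744557, minus strand), had 59.0, 55.9, 53.7 and 47.7 CPM in the LKO libraries, against 29.7, 32.0 and 35.5 CPM in female Fl/Fl libraries and 66.1 CPM in the male. It rose by 0.74 ± 0.10 on the log2 scale (adjusted p = 0.0133). LKO 13 was the lowest LKO library for both genes, as it was for 7 of the 8 that rose. Ndufv3, a small accessory subunit beside the flavin-binding Ndufv1 (chromosome 17, 31520115 to 31531326, plus strand), had 45.8, 47.9, 43.9 and 41.6 CPM in LKO, against 27.2, 29.4 and 36.3 CPM in female Fl/Fl libraries and 50.4 CPM in the male (log2 0.53 ± 0.11, adjusted p = 0.0459). Here Fl/Fl 9 was nearest to LKO, while the other female Fl/Fl libraries were well below.

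In the distal membrane arm 4 of 11 subunits rose, the most of any part. Ndufb3 (chromosome 1, 58586384 to 58595964, plus strand), a small subunit that spans the inner membrane, had 21.8, 26.1, 28.3 and 21.9 CPM in LKO, against 13.7, 14.8 and 13.4 CPM in female Fl/Fl libraries and 35.3 CPM in the male (log2 0.81 ± 0.11, adjusted p = 0.0134). The 3 female Fl/Fl libraries were close together and all LKO values were clear of them. Ndufb6 (chromosome 4, 40270591 to 40279421, minus strand), another subunit of the membrane arm, had 23.6, 23.5, 24.3 and 19.8 CPM in LKO, against 13.2, 15.3 and 14.9 CPM in female Fl/Fl libraries and 24.8 CPM in the male (log2 0.66 ± 0.11, adjusted p = 0.0175). Again the LKO and female Fl/Fl values did not overlap.

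Ndufb8 (chromosome 19, 44548572 to 44555440, minus strand), whose protein is widely used as a marker of assembled complex I, had 26.9, 28.2, 27.7 and 24.1 CPM in LKO, against 19.4, 19.9 and 16.7 CPM in female Fl/Fl libraries and 25.9 CPM in the male (log2 0.52 ± 0.10, adjusted p = 0.0367). It was the only one of the 8 in which the male library lay within the range of LKO. Ndufb11, an X-linked subunit of the membrane arm (chromosome X, 20615326 to 20617619, minus strand), had 106, 104, 90.4 and 86.8 CPM in LKO, against 66.6, 73.5 and 71.1 CPM in female Fl/Fl libraries and 118 CPM in the male (log2 0.46 ± 0.10, adjusted p = 0.0483). It was the call nearest to the threshold, and among the 8 fits that each left out a library it passed in 1, the fit without Fl/Fl 9.

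In the proximal membrane arm 1 of 9 subunits rose. Ndufa13, also known as Grim19 (chromosome 8, 69894180 to 69902558, minus strand), had 69.7, 74.3, 70.99 and 61.5 CPM in LKO, against 44.3, 53.8 and 43.1 CPM in female Fl/Fl libraries and 93.1 CPM in the male (log2 0.55 ± 0.11, adjusted p = 0.0366). LKO 13 was again the lowest of its group but stayed above Fl/Fl 7, the highest female Fl/Fl library. Ndufa13 shares 8379 bases with Yjefn3 on the same strand, which averaged 38.9 reads a library beside 4751 for Ndufa13. It also shares 375 bases with Tssk6 on the opposite strand. Besides Ndufs6, the called genes Ndufb6 (350 bases, Smim27), Ndufb11 (117, Rbm10) and Ndufa2 (60, Tmco6) also overlap a gene on the opposite strand. The 2 subunits nearest below the threshold were Ndufc2 of the proximal arm (log2 0.42 ± 0.10, adjusted p = 0.0611) and Ndufb10 of the distal arm (log2 0.38 ± 0.09, adjusted p = 0.0877), with every LKO library above every female Fl/Fl library in both.

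Sequence upstream of 3 of these genes is shown because these are 3 of the 4 genes with the largest rises. The other, Ndufa2, is only named. Sequences are from RefSeq, build GRCm38.p6, 5′ to 3′ on the strand of the gene, and end at the base before the deposited gene start. Capitals mark a match to a motif searched on both strands: CCAAT of NF-Y, which reads ATTGG on the other strand, or CCGGAAG of the ETS factor GABP, which reads CTTCCGG. The windows are chr13:73328543-73328732 (minus strand) for Ndufs6, chr1:58586147-58586383 (plus strand) for Ndufb3 and chr4:40279422-40279671 (minus strand) for Ndufb6.
Ndufs6: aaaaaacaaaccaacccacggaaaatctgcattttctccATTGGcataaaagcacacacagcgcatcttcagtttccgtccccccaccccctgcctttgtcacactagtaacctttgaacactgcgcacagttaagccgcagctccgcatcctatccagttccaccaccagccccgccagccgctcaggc
Ndufb3: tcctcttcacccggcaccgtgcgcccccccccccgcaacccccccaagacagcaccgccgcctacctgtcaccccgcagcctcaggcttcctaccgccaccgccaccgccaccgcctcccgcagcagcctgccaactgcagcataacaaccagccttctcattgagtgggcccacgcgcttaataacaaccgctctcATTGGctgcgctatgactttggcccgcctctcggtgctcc
Ndufb6: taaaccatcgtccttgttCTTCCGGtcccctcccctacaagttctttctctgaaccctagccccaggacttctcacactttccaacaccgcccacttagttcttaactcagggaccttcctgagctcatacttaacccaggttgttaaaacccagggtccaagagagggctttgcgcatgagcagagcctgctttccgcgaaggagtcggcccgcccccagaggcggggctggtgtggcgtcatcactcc

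Over the 250 bases before the RefSeq start, 40 of the 46 genes could be matched, 7 of them among the 8 that rose. NF-Y's CCAAT was found in 14 of 40 (5 of the 7 that rose), beside 37.5% of all RefSeq genes. The consensus of NRF-1, a regulator of respiratory chain genes, was found in 7 of 40 (1 of the 7, Ndufs6, outside the sequence shown), beside 4.23%. CCGGAAG was found in 5 of 40 (1 of the 7, Ndufb6), beside 7.83%, TCAAGGTCA of ERR alpha in 0 of 40, beside 0.422%, and the E-box CACGTG in 2 of 40 (0 of the 7), beside 6.86%. Each of the 3 windows shown holds 1 match, so none overlap there. A match describes the letters in the window and nothing more.

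The core subunits hold the redox centres, and none of them passed the threshold. Of the 7 nuclear core subunits, 0 were called in edgeR, 3 had a positive and 4 a negative fold change, and their median log2 fold change was -0.005, where the 29 accessory subunits had 8 higher, 25 positive and a median of 0.31. Before adjustment, 1 core subunit was higher and 0 were lower at p under 0.05, limma voom called 0 and DESeq2 called 1 (Ndufv1). These core values depend on Fl/Fl 7. Without it, 6 of the 7 core subunits were positive with a median of 0.09 and 0 called, and without both Fl/Fl 5 and 7 all 7 were positive with a median of 0.17 and 0 called. The accessory medians in the same fits were 0.36 and 0.34. The sets also differed in deposited gene length, with a median of 2178 bases for core and 1251 for accessory subunits. With each library's length trend removed (described below), the medians were -0.03 for core and 0.20 for accessory subunits. On principal transcript length they were -0.08 and 0.17. The difference between core and accessory subunits was not tested.

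Ndufv1, which binds the flavin and NADH, was the core subunit with the largest positive fold change. It had 137, 138, 135 and 126 CPM in LKO, against 110, 112 and 108 CPM in female Fl/Fl libraries and 145 CPM in the male (log2 0.29 ± 0.08, adjusted p = 0.104). The groups did not overlap, but the gene did not pass the threshold. Ndufs3, a core subunit of the Q module, followed with a log2 fold change of 0.19 ± 0.09 (adjusted p = 0.323). Both lie in the peripheral arm.

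Ndufs8, which carries iron-sulfur clusters, had 59.6, 67.4, 65.2 and 63.0 CPM in LKO, against 61.4, 70.7 and 59.9 CPM in female Fl/Fl libraries and 64.8 CPM in the male (95% interval of the log2 fold change -0.20 to 0.19). The groups overlapped throughout, and the size of the median accessory change (0.31) lay outside the interval. The same held for the accessory subunit Ndufs4 (-0.25 to 0.17), while the interval of the core subunit Ndufv1 (0.12 to 0.46) included it. The comparison therefore does not set core subunits apart.

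Ndufs1, the largest core subunit, had the most negative value of the core N module, with 103, 116, 121 and 116 CPM in LKO, against 121, 130 and 111 CPM in female Fl/Fl libraries and 113 CPM in the male (log2 -0.08 ± 0.09, adjusted p = 0.718). Ndufs7 had the most negative value of the core Q module (log2 -0.05 ± 0.12, adjusted p = 0.891), and Ndufv2, an iron-sulfur subunit, was at -0.03 (95% interval -0.22 to 0.17). These intervals leave room for small changes either way.

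**Figure D2:**
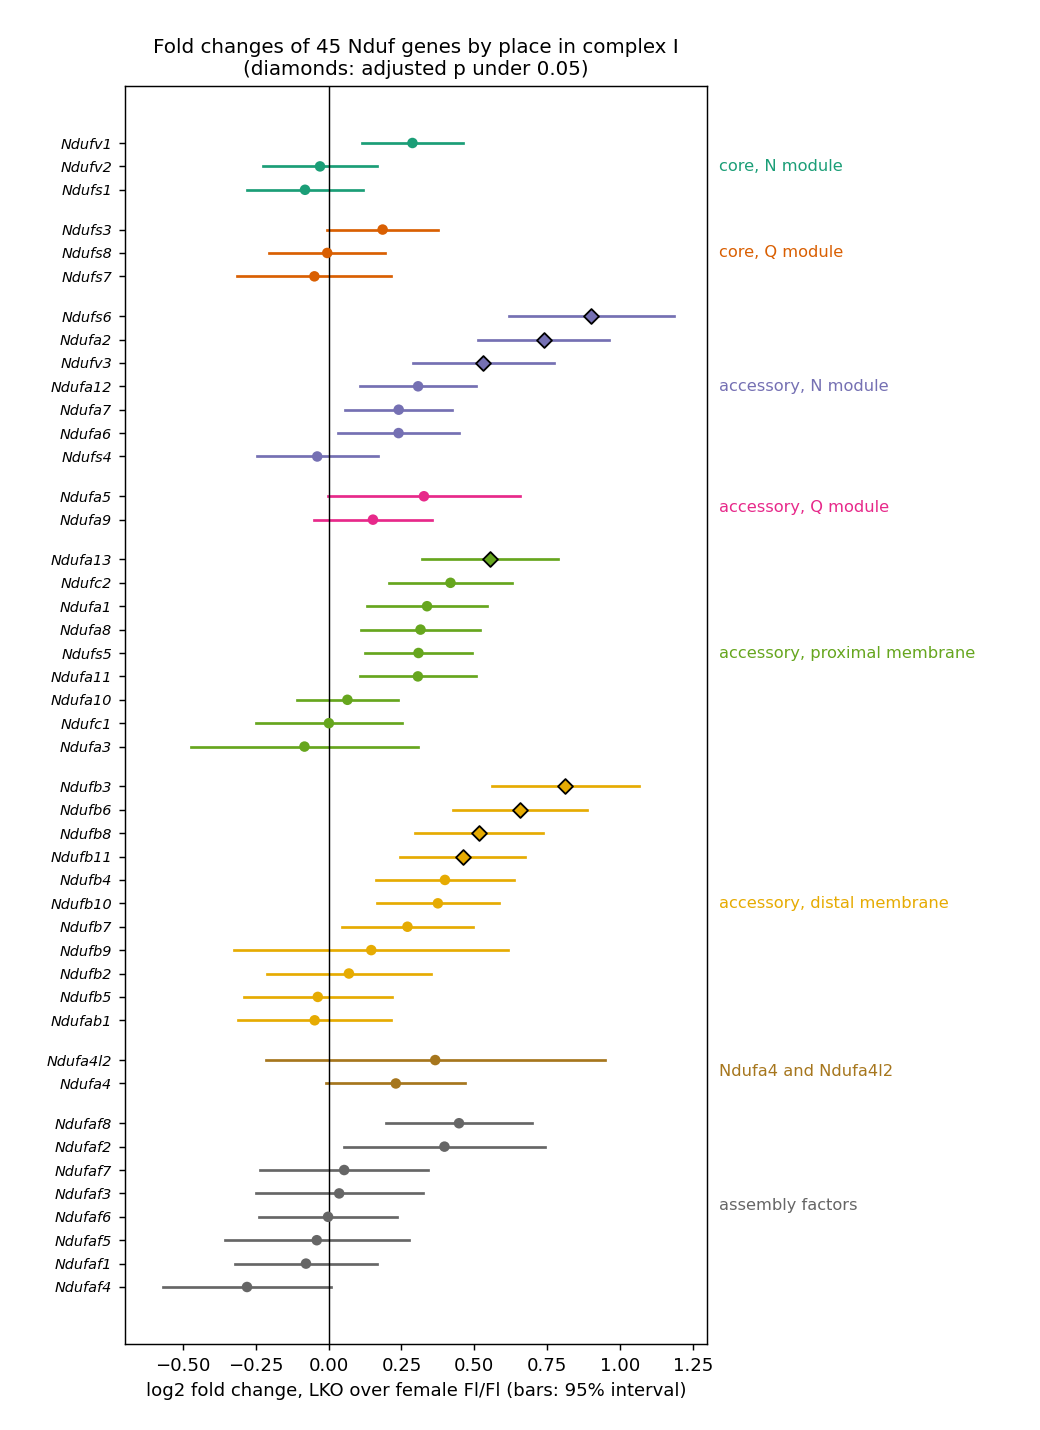
Log2 fold change of LKO over female Fl/Fl (x axis) for 45 of the 46 genes, grouped by place in the complex, with LKO 4 and female Fl/Fl 3 libraries. Bars are 95% intervals from the edgeR fit and diamonds mark an adjusted p under 0.05. The diamonds lie in the accessory N module (3), the proximal (1) and the distal membrane arm (4), and the assembly factors lie on both sides of 0.

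Accessory subunits that did not pass spanned a wide range. In the accessory N module, Ndufs4, a subunit whose loss causes a Leigh-like disease in mice, was the only one with a negative value (log2 -0.04 ± 0.09, adjusted p = 0.889), and the 7 had a median of 0.31. The Q module holds Ndufa5 (log2 0.33 ± 0.15, adjusted p = 0.314) and Ndufa9 (log2 0.15 ± 0.09, adjusted p = 0.456), and neither gene of this pair passed. Over all 6 Q-module subunits, core and accessory, 0 were called and the median was 0.11, with 0 at p under 0.05 before adjustment in either direction. DESeq2 and limma voom called 0 of the 6 as well.

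In the proximal membrane arm the most negative value was that of Ndufa3, which had 16.4, 16.9, 15.8 and 17.3 CPM in LKO, against 19.9, 21.1 and 11.8 CPM in female Fl/Fl libraries and 20.4 CPM in the male. Its LKO values were close together, while Fl/Fl 9 was far below the other Fl/Fl libraries (log2 -0.08 ± 0.17, adjusted p = 0.869). In the distal arm the most negative value was that of Ndufab1, the mitochondrial acyl carrier protein, with 24.8, 22.9, 23.6 and 26.1 CPM in LKO, against 24.8, 29.8 and 20.9 CPM in female Fl/Fl libraries and 23.8 CPM in the male (log2 -0.05 ± 0.12, adjusted p = 0.892). Medians were 0.31 over the 9 proximal and 0.38 over the 11 distal subunits.

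The 2 Nduf-named genes outside complex I did not pass either. Ndufa4 had 173, 173, 172 and 160 CPM in LKO, against 152, 162 and 119 CPM in female Fl/Fl libraries and 193 CPM in the male (log2 0.23 ± 0.11, adjusted p = 0.327). LKO 13 overlapped with Fl/Fl 7. Ndufa4l2, which is known to be induced by hypoxia, was close to the bottom of the range with 1.65, 1.19, 2.03 and 1.26 CPM in LKO, against 1.01, 1.13 and 1.42 CPM in female Fl/Fl libraries and 1.25 CPM in the male (log2 0.37 ± 0.26, adjusted p = 0.547). It shares 32 bases with Shmt2 on the opposite strand, which averaged 17152 reads a library beside 102.5 for Ndufa4l2, so its reads are uncertain.

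The assembly factors, proteins that help to build the complex, lay on both sides of 0. Of the 8 Ndufaf genes, 0 passed in edgeR, 4 had a positive and 4 a negative fold change, and the median was 0.02. Before adjustment 2 were higher and 0 lower, limma voom called 0 and DESeq2 called 1 (Ndufaf8). Whether the assembly factors differ from the subunits was not tested.

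Ndufaf8, in human cells a partner of NDUFAF5, had 11.8, 12.6, 13.2 and 11.6 CPM in LKO, against 8.54, 10.04 and 8.45 CPM in female Fl/Fl libraries and 13.4 CPM in the male (log2 0.45 ± 0.11, adjusted p = 0.0877). Its groups did not overlap. Ndufaf2, a paralogue of the N-module subunit Ndufa12, had 5.91, 5.79, 7.52 and 7.72 CPM in LKO, against 4.46, 5.36 and 5.52 CPM in female Fl/Fl libraries and 9.47 CPM in the male (log2 0.40 ± 0.16, adjusted p = 0.244). It shares 4727 bases with Smim15 on the opposite strand, which averaged 1292 reads a library beside 482 for Ndufaf2, so its reads are uncertain.

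Ndufaf4, which acts early on the Q module in human cells together with NDUFAF3, had the most negative fold change of the 46 genes. It had 20.5, 17.5, 17.1 and 22.2 CPM in LKO, against 25.8, 25.3 and 19.3 CPM in female Fl/Fl libraries and 28.7 CPM in the male (log2 -0.28 ± 0.13, adjusted p = 0.322). LKO 3 and LKO 13 overlapped with Fl/Fl 9. The other 5 lay between -0.08 for Ndufaf1, which works with Acad9 and Ecsit in a complex for the membrane arm, and 0.05 for Ndufaf7, a protein arginine methyltransferase. In levels, the 8 assembly factors summed to 62.8 ± 2.89 FPKM in LKO and 60.1 ± 5.41 FPKM in female Fl/Fl livers (SD, n = 4 and n = 3). All tested genes together summed to 415800 FPKM in LKO and 392100 FPKM in female Fl/Fl livers.

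Levels can be set between genes only per length, as the FPKM values that the authors deposited, which divide the reads by gene length and library size. The 38 subunits summed to 1592 ± 72.8 FPKM in LKO and 1302 ± 98.7 FPKM in female Fl/Fl livers (SD, n = 4 and n = 3), with 1837 FPKM in the male. The sum over all tested genes was itself higher in LKO, 415800 ± 12910 FPKM against 392100 ± 2055 FPKM, with 437800 FPKM in the male. Ndufa4 was highest at 127 ± 4.52 FPKM in LKO and 109 ± 16.3 FPKM in female Fl/Fl livers. Ndufb11 followed with 111 ± 11.2 FPKM in LKO and 80.5 ± 3.95 FPKM in female Fl/Fl livers. The top thus held a complex IV subunit and an accessory subunit of complex I that rose in LKO.

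At the bottom, Ndufa4l2 had 1.45 ± 0.36 FPKM in LKO and 1.13 ± 0.20 FPKM in female Fl/Fl livers, and Ndufb2, a small subunit of the distal arm, had 1.43 ± 0.072 FPKM in LKO and 1.37 ± 0.16 FPKM in female Fl/Fl livers. Ndufab1 was the third lowest subunit with 3.67 ± 0.22 FPKM in LKO and 3.80 ± 0.65 FPKM in female Fl/Fl livers. These ranks depend on the deposited gene length, which was 5628 bases for Ndufb2, where its principal annotated transcript has 4371, and 3146 bases for Ndufb8, where the transcript has 680. At the same number of reads, a longer deposited length gives a lower FPKM.

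**Figure D3:**
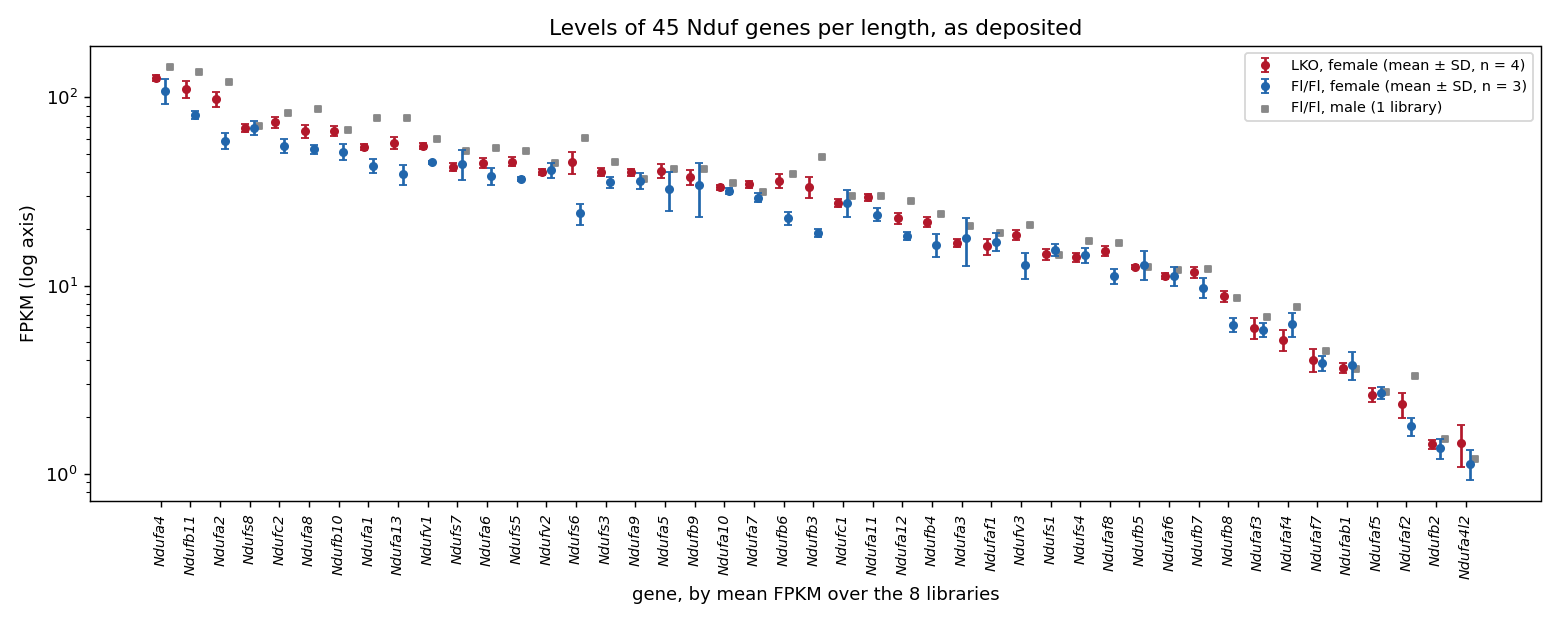
FPKM as deposited (y axis, log scale) of 45 of the 46 genes, ordered on the x axis by their mean over the 8 libraries. Circles with bars are the mean ± SD of the 4 LKO and the 3 female Fl/Fl libraries, and squares are the male Fl/Fl library. Female group means run from 127 FPKM for Ndufa4 in LKO to 1.13 FPKM for Ndufa4l2 in female Fl/Fl livers.

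Gene length moved with the fold changes. Over the 38 subunits Spearman's rho between the log2 fold change and the deposited gene length was -0.55, beside -0.18 over all 16420 tested genes (a description across genes that share the same libraries). Of the 10 subunits under 1000 bases, 5 rose and the median log2 fold change was 0.44, where 1.88% of the 1327 tested genes of that length rose and their median was 0.14. The 14 subunits of 1000 to 2000 bases held 1 that rose and a median of 0.27, beside 1.52% and 0.09 over all tested genes of that length. The 9 subunits of 2000 to 4000 bases held 2 that rose and a median of 0.15, beside 0.992% and 0.02. Of the 5 subunits of 4000 bases or more, 0 rose and the median was -0.04, beside 0.742% and -0.05. The calls thus did not fall steadily with length.

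The libraries themselves had a length trend. A gene of 1000 bases lay at 0.06, 0.11, 0.09 and 0.02 on the log2 scale relative to the mean of the 8 libraries in LKO 3, 4, 12 and 13, against -0.08, -0.01 and -0.08 in female Fl/Fl 5, 7 and 9 and 0.10 in the male. With this trend removed from each library, 6 subunits stayed past the threshold (0.895% of all genes were then higher). Ndufv3 (adjusted p = 0.0594) and Ndufb11 (adjusted p = 0.119) did not pass, and the median over the 38 was 0.18. Spearman's rho with deposited gene length was then -0.37 over the 38 subunits and 0.008 over all tested genes. A relation with length thus remained among the subunits. With the trend on the length of the principal transcript removed, 5 stayed (0.682% of all genes), Ndufb8 (adjusted p = 0.0892) being lost as well, and the median was 0.13.

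**Figure D4:**
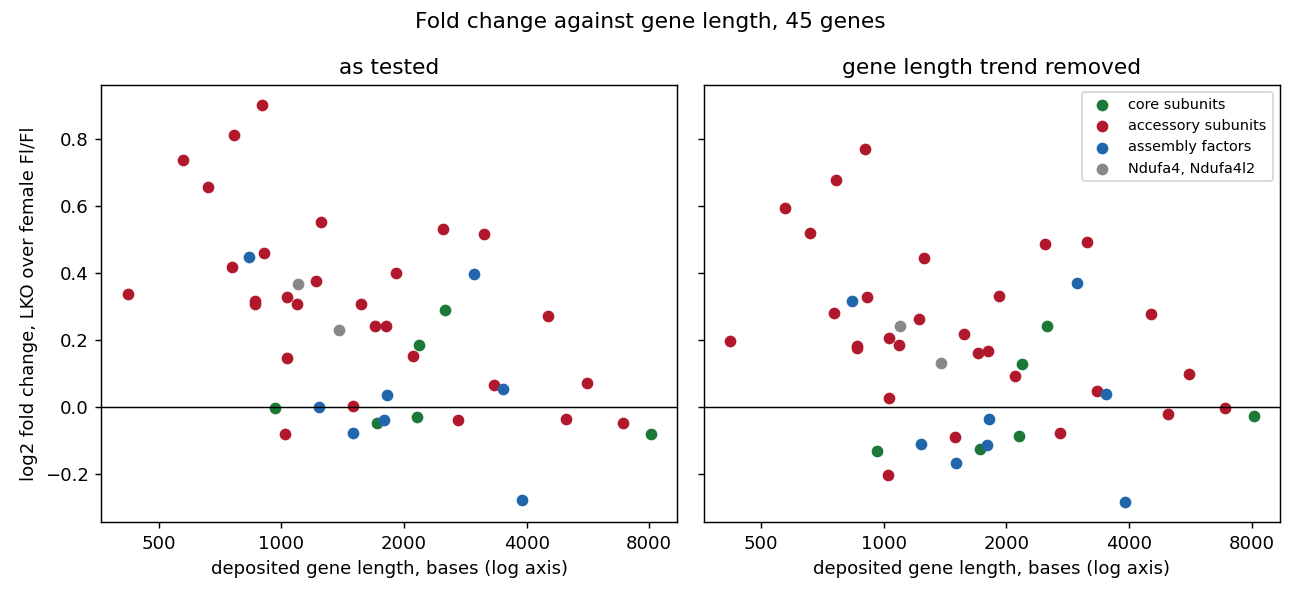
Log2 fold change of LKO over female Fl/Fl (y axes) against deposited gene length in bases (x axes, log scale) for 45 of the 46 genes, as tested on the left and after removal of each library's length trend on the right. Each point is a gene. Ndufs6, with 898 bases deposited, is the highest point in both panels (0.90 and 0.77), while Ndufa1, the shortest with 419 bases, lies at 0.34 on the left and 0.20 on the right. The 38 subunits have a median of 0.28 on the left and 0.18 on the right.

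Library by library, the median subunit was higher in each LKO library than in any female Fl/Fl library. It lay at 0.27, 0.32, 0.28 and 0.17 on the log2 scale above the female Fl/Fl mean in LKO 3, 4, 12 and 13, and at -0.03, 0.13 and -0.10 in female Fl/Fl 5, 7 and 9. The core subunits had medians of 0.01, 0.08, 0.04 and -0.02 in LKO, against 0.00, 0.12 and -0.11 in female Fl/Fl libraries. The accessory medians of the LKO libraries were all above those of the female Fl/Fl libraries, and the core medians overlapped.

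The male Fl/Fl library had a median subunit at 0.36 above the female Fl/Fl mean, higher than any LKO library. It lay above every LKO library in 25 of the 38 subunits and in 7 of the 8 that rose. This single library decides the fit without a sex term, and sex and library cannot be told apart in it. It also had the lowest share of reads from albumin, 5.47%, beside 9.63% to 10.3% in LKO and 10.4% to 11.2% in female Fl/Fl libraries. Among the female Fl/Fl libraries, Fl/Fl 7 was the highest in 32 of the 38 subunits and Fl/Fl 9 the lowest in 26.

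**Figure D5:**
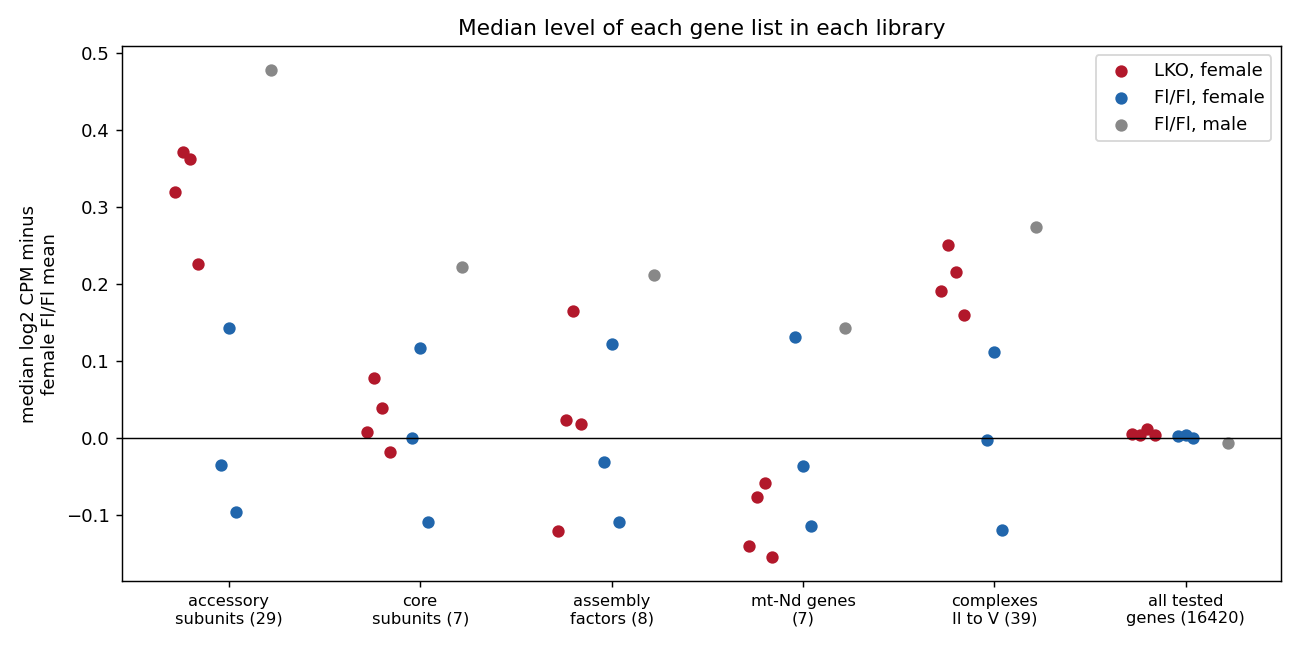
Median log2 CPM of each gene list relative to the female Fl/Fl mean (y axis) in each library, for LKO females, Fl/Fl females and the Fl/Fl male from left to right within each list (x axis, number of genes in brackets). Each point is a library. LKO points lie above the female Fl/Fl points for the accessory subunits and for complexes II to V, and overlap with them for the core subunits, the assembly factors and the mt-Nd genes.

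The libraries also differed in clock phase and in immediate early genes. Dbp, a clock output gene, had 0.606, 1.64, 54.4 and 42.2 CPM in LKO 3, 4, 12 and 13, against 2.46, 3.50 and 26.9 CPM in female Fl/Fl 5, 7 and 9 and 46.1 CPM in the male. Libraries low in Dbp were thus LKO 3 and 4 and Fl/Fl 5 and 7, and those high in it LKO 12 and 13 and Fl/Fl 9. Within the low libraries the 8 called genes had a median log2 difference of LKO from Fl/Fl of 0.73 (0.49 to 1.00), and within the high ones, which include a single Fl/Fl library, 0.58 (0.23 to 0.89). These 8 genes were called on the same libraries and had every LKO library above every female Fl/Fl library, so positive values in both sets follow from that choice. The core subunits had medians of -0.06 and 0.16 and the assembly factors of -0.11 and 0.25 in the same pairs of sets. Subunits were positive in 29 of 38 among the low and 38 of 38 among the high libraries, and assembly factors in 3 and 8 of 8. The high set rests on Fl/Fl 9 alone, the lowest female Fl/Fl library in 26 of the 38 subunits. Shares over all tested genes were not computed for these sets, so the counts have no background.

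Fos, an immediate early gene, had 12.7, 7.64, 6.76 and 4.87 CPM in LKO, against 298, 265 and 30.7 CPM in female Fl/Fl libraries and 4.78 CPM in the male. Of the 14 immediate early genes, 13 had a negative fold change with a median of -1.21, where 49.5% of all tested genes were positive. Before adjustment 8 were lower (6.86% of all tested genes), and 2 fell past the threshold, Junb and Jun (0.396%). DESeq2 called 7 lower (1.92%) and limma voom 2 (0.359%). EdgeR called 6 lower without Fl/Fl 9 and 0 with genotype alone. Shares of all genes lower are not given for fits without a library or with genotype alone. Without Fl/Fl 5, Fl/Fl 7, LKO 4, LKO 12 or LKO 13, Junb was the 1 gene called, and without LKO 3 there were 3 (Junb, Btg2 and Nr4a1). The male Fl/Fl library was as low in Fos as LKO, and the part of this state in the result was not tested. Of 47 tested markers of cholangiocytes, macrophages, stellate cells, endothelium, lymphocytes and red cells, 0 passed in edgeR or limma voom. Before adjustment 1 was higher and 3 were lower, beside 9.22% and 6.86% of all tested genes. DESeq2 called 1 (C1qa, higher), beside 3.47% of genes higher.

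Other genes of complex I did not pass. Of the 13 assembly factors with other names, 0 were called in edgeR, limma voom or DESeq2, with 1 higher and 0 lower before adjustment, 11 had a positive fold change and the median was 0.09. Foxred1, an assembly factor with an oxidoreductase fold, was at 0.23 on the log2 scale (adjusted p = 0.185), Acad9 0.17 (adjusted p = 0.440) and Nubpl, which delivers iron-sulfur clusters, 0.16 (adjusted p = 0.547). For the 7 subunits encoded in the mitochondrial genome, 0 were called by any of the 3 tools, with 1 higher and 0 lower before adjustment, and 6 had a negative value with a median of -0.14. mt-Nd4l was the exception (log2 0.34, adjusted p = 0.292), mt-Nd6 was at -0.20 (adjusted p = 0.360) and mt-Nd5 at -0.17 (adjusted p = 0.453). The counts before adjustment depended on the fit. With the gene length trend removed, 0 of the 7 were higher and 4 lower (median -0.25). On principal transcript length 0 were higher and 3 lower (median -0.25), as without Fl/Fl 9 (median -0.20). In these fits 0 passed after adjustment. These 7 summed to 19020 ± 637 FPKM in LKO and 20970 ± 1368 FPKM in female Fl/Fl livers (SD, n = 4 and n = 3). The nuclear core subunits summed to 356 ± 10.96 FPKM in LKO and 341 ± 27.5 FPKM in female Fl/Fl livers, beside 415800 and 392100 FPKM over all tested genes.

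Nuclear subunits of the other respiratory complexes leaned the same way as the accessory subunits. Of the 39 tested genes of complexes II to V, 6 rose, 0 fell, 37 were positive and the median was 0.20. Over all tested genes 49.5% were positive and the median was -0.003. With each library's gene length trend removed, 5 rose (0.895% of all genes), 31 were positive and the median was 0.11. On principal transcript length, 4 rose (0.682%), 29 were positive and the median was 0.08. Of all tested genes, 1.02% rose and 0.396% fell, with 3.47% higher in DESeq2. Cox5b of complex IV had 80.6, 83.1, 82.6 and 60.5 CPM in LKO, against 32.9, 36.0 and 41.7 CPM in female Fl/Fl libraries and 104 CPM in the male (log2 1.06 ± 0.13, adjusted p = 0.00881). Uqcr11 of complex III followed (log2 1.05 ± 0.13, adjusted p = 0.00954), with Uqcrq, Cox8a, Atp5g3 and Atp5e. For the 0 that fell, no gene was lower before adjustment either, and DESeq2 and limma voom called 0 lower, but Cox6c was called lower without Fl/Fl 9. The 6 that rose became 10 with DESeq2, 2 without Fl/Fl 7 or without LKO 4, and 0 without Fl/Fl 5, without Fl/Fl 5 and 7 together, or with genotype alone.

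Among 11 regulators of mitochondrial biogenesis, 1 rose, beside 1.02% of all tested genes. Ppargc1b, a coactivator of nuclear receptors that drive respiratory genes, had 8.35, 11.2, 12.97 and 13.8 CPM in LKO, against 6.51, 4.05 and 6.09 CPM in female Fl/Fl libraries and 9.27 CPM in the male (log2 1.06 ± 0.21, adjusted p = 0.0410). Limma voom called 0 of the 11 (0.944% of all genes higher) and DESeq2 called 3 (3.47%). Esrra, which encodes ERR alpha, was at 0.42 (adjusted p = 0.0521) and Ppargc1a at 1.09 (adjusted p = 0.114), and the median of the 11 was -0.04. Without Fl/Fl 5, Fl/Fl 7, LKO 12 or LKO 13, Ppargc1b did not pass. Without LKO 4, Ppargc1a passed in its place. Of 77 genes of the mitochondrial ribosome, 4 rose and the median was 0.12. The 4 became 13 with DESeq2 (3.47% of all genes higher) and 9 without Fl/Fl 9 (2.84%, where 1 of the 77 was lower). They became 2 without LKO 12 (0.662%) or without LKO 13 (0.262%). The count was 0 without Fl/Fl 5 (0.0119%), without Fl/Fl 7 (0.149%), without LKO 4 (0.214%), or with genotype alone (0.00609%).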

How the data were processed

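Total RNA of 8 mouse livers was sequenced. The library kit was NEBNext Ultra RNA, per the labels' protocols. Tools named in the submitters' processing notes, with no role or version, are STAR, featureCounts, HTSeq, fastp, edgeR, DESeq2 and DESeq, and the build is mm10. The annotation and any strand setting are not given in the sources used here. In 1 table the authors deposited whole-number read counts per gene, normalised signal values (counts over a size factor of 0.942 to 1.05 per library), FPKM values (counts over gene length and library size), and their own log2 fold changes with p-values, from no sex term. Of the columns of sample values, 0 were left unmapped.

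Counts were tested in R 4.3.3 with edgeR 4.0.16 (filterByExpr, TMM, robust quasi-likelihood F test, terms for sex and genotype over 8 libraries, two-sided, Benjamini-Hochberg over 16420 genes, threshold 0.05). The biological coefficient of variation was 20.4%. Alternatives used DESeq2 1.42.0 and limma voom (3.58.1), other scalings, filters and thresholds, each replicate left out, and length trends (lowess, span 0.3) removed as offsets. The procedure was checked on simulated data. Floors cover counting error only. No pair of libraries was alike (lowest chi-square per degree of freedom 35.1). Labels name separate samples but no litters or days, and p-values therefore cover only the variation among the 8 samples, which may be technical.

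Members and lists, including the placing of subunits in modules, were chosen with earlier results of these data known. Named genes are every member past the threshold, the 3 assembly factors of smallest p, the 3 highest and 3 lowest subunits by FPKM, the largest positive and negative fold change per module, Ndufa4 and Ndufa4l2, up to 3 genes of each other list, and library facts. Krt7, Ndufs8, Ndufv2, Ndufa9, Ndufc2, Ndufb10, Ndufc1, Ndufaf1, Ndufaf7, C1qa, Cox6c, Btg2 and Nr4a1 fall outside this rule and were chosen after their values were seen. Ndufa12, Ndufa8, Ndufs5 and Ndufa1 also fall outside it. They are named for a library far from the others, and Ndufa1 also as the shortest gene. Genes that overlap or resemble a member are named for that alone. Of the 46 members, 1 is counted in every total but is not reported here by name. Another 5 Nduf-named rows of other biotypes, pseudogenes among them, were not members. Of the 46 genes, 8 have a pseudogene transcript of at least 95% identity over 100 bases. Where that pseudogene was among the listed genes, its reads came to at most 4.77% of the member's. Gm45930, the only such match of Ndufb3, and Gm16056, a match of Ndufb4, were not listed, so their reads are unknown. Of the 46 genes, 20 overlap another listed gene, 18 of them on the opposite strand. Principal transcripts are from GENCODE M21.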

Additional observations from a re-analysis of the deposited data

Results flagged for a closer look

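Among the 46 genes, 92 groups of 4 libraries (46 of LKO and 46 of Fl/Fl, the male included) were examined for a library far from the other 3, and 12 stood out, where chance flags about 1 in 20 groups. In 8 of the 12 it was the male library Fl/Fl 10, above the 3 female Fl/Fl libraries. It held 66.1 CPM of Ndufa2 (others 29.7 to 35.5), 35.3 CPM of Ndufb3 (13.4 to 14.8), 52.4 CPM of Ndufs6 (19.3 to 24.1) and 118 CPM of Ndufb11 (66.6 to 73.5), 4 genes that rose in LKO. It also held 42.1 CPM of Ndufa12 (26.9 to 29.5), 71.9 CPM of Ndufa8 (42.1 to 47.0), 42.9 CPM of Ndufs5 (29.97 to 31.4) and 145 CPM of Ndufv1 (108 to 112).

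Of the other 4, Fl/Fl 9 held 11.8 CPM of Ndufa3, beside 19.9 to 21.1 CPM in the other Fl/Fl libraries. LKO 12 held 38.1 CPM of Ndufa12, beside 32.8 to 33.5 CPM in the other LKO libraries. LKO 13 held 20.9 CPM of Ndufa1 (others 22.5 to 22.6) and 160 CPM of Ndufa4 (172 to 173), gaps that are small beside the level.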

How the results depend on the processing

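The 8 subunits higher in LKO became 14 with DESeq2, 5 with the principal transcript length trend removed (added after seeing the data), and 0 with genotype alone, without Fl/Fl 5 and 7 together (each lone Fl/Fl library being assumed to vary like the others) and at a threshold of 0.01. Leaving out 1 library gave 0 to 9, and the remaining alternatives 6 to 10. Assembly factors higher were 0, but 1 with DESeq2 and 1 at a threshold of 0.1 (Ndufaf8 in both). Counts lower were 0 for both in every fit. The subunit median of 0.28 was 0.18 with the length trend removed, 0.14 with genotype alone, 0.13 with the principal length trend removed and 0.22 to 0.32 with 1 library left out. The assembly factor median of 0.02 was 0.14 without Fl/Fl 5 and 7, -0.07 with either length trend removed and -0.04 to 0.09 with 1 library left out. The cause of these shifts was not tested. Over 21 alternatives Ndufs6 and Ndufb3 lost the threshold in 4 each and Ndufb11 in 16. The 21 count the fit to the 7 female libraries alone and the identical fit without Fl/Fl 10 separately. No called gene changed sign, which largely follows from their choice on these same libraries. No paired analysis was possible because the replicate numbers differ between the genotypes. Depth put every subunit but Ndufa4l2 above 500 reads in each library, and depth was not compared with library number as a limit.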
